A study of Mus musculus with 6 samples.

Results

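The genes described here encode the proteasome and the proteins that assemble or activate it. They were chosen by name, as every probe set (a group of short oligonucleotides against 1 transcript) whose annotation gives exactly 1 gene symbol that starts with Psma, Psmb, Psmc, Psmd or Psme and goes on with a digit. The rule found 76 probe sets of 22626, for 43 genes of the 12393 genes measured. A pair of them share only the start of the name and are no part of the particle, which left 41 proteasome genes. For each gene the probe set with the highest mean log2 intensity was used, and the others served as a check.

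RNA from lenses of newborn ICR mice was measured on 6 Affymetrix arrays, with 3 wild-type and 3 Hsf4-null samples described as biological replicates. Hsf4 is a heat shock transcription factor that acts in the lens, where fiber cells remove their nuclei and organelles as they mature. The comparison asks which transcripts differed in level when it was absent. From each sample 50 ng of total RNA was amplified, and the authors applied RMA, a method that subtracts background, gives all arrays 1 common distribution and summarizes the probes of each probe set into 1 value. The whole lens was taken, so that fewer cells of a type and less RNA per cell cannot be told apart. The sources used here do not say whether lenses were pooled or whether the wild-type mice were littermates.

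The proteasome is the large protease that degrades proteins tagged with ubiquitin. Its 20S core is a barrel of outer alpha rings and inner beta rings, with the cutting sites on the beta subunits. A 19S regulatory particle on the end of the barrel holds a base, with a ring of ATPases that unfold the substrate, and a lid, which removes the ubiquitin chain. Other activators can take the place of the 19S particle, and immune signals replace the cutting subunits with immunoproteasome forms. In the lens, where proteins of mature fiber cells are hardly renewed, the ubiquitin and proteasome system is known to act in differentiation and in the removal of damaged protein.

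Arrays were close in scale, with median intensities of 37.4 to 41.6, and log2 values correlated at 0.991 to 0.994 within groups and at 0.982 to 0.990 between them. Hsf4 itself read 9.09, 9.39 and 9.56 (log2 intensity) on the wild-type arrays and 4.26, 4.09 and 3.78 on the Hsf4-null arrays. It fell by 5.30 log2 units (standard error, SE, 0.16, limma adjusted p = 9.54e-06), although the sources used here do not say whether its probe set lies in the deleted part. Of 7 lens markers, 5 were measured, and Cryaa, Cryba1, Crygs and Mip were at 12.95 or above on every array. The marker of lens epithelium, Foxe3, was below 5.22, the lowest array median. Its log2 change was -0.38 (SE 0.09, limma adjusted p = 0.0808), and none of the 5 lens markers passed the test.

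None of the 41 proteasome genes passed an adjusted p of 0.05 in limma in either direction, and nearly all of their differences were small. Over all genes, limma called 2.11% lower and 0.775% higher in Hsf4-null lenses. At an unadjusted p under 0.05, limma marked 3 of the 41 (Psmc5, Psmd10 and Psmd14), or 7.32%, against 15.7% of all genes. The equal-variance test of the study's methods (the methods' t-test) marked 5 of the 41 at p under 0.05 (Psmb3, Psmc5, Psmd1, Psmd10 and Psmd14), or 12.2%, against 13.4% of all genes, and 0 after Benjamini-Hochberg adjustment. The 3 Hsf4-null arrays all lay below the 3 wild-type arrays for 3 of the 41 genes (Psma7, Psmc5 and Psmd10), with 11.5% over all genes. They all lay above for 5 of the 41 (Psma4, Psmb3, Psmd1, Psmd4 and Psmd14), with 10.1% over all genes. These shares were near or under those over all genes.

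The median log2 change (Hsf4-null minus wild-type) over the 41 genes was -0.009, with a range of -0.34 to 0.38, beside a median of 0.007 over all genes. The changes had a standard deviation of 0.143 across the 41 genes and of 0.334 across all genes. Since a missed threshold does not show that levels were the same, the intervals are of use here. The 95% interval from limma lay within 1.5-fold in both directions for 39 of the 41 genes, or 95.1%, against 72.9% of all genes and 69.8% of the 6961 genes above the lowest array median. It lay within 2-fold for all 41. The exceptions at 1.5-fold were Psmd10 and Psma8. Interval width follows the standard error, whose median was 0.101 over the 41 genes, 0.125 over all genes and 0.123 over the 6961. The genes compared were not matched for brightness. With 3 arrays a group, an exact permutation test of 1 gene cannot go below 0.1, and the number of arrays limits the precision.

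**Figure D1:**
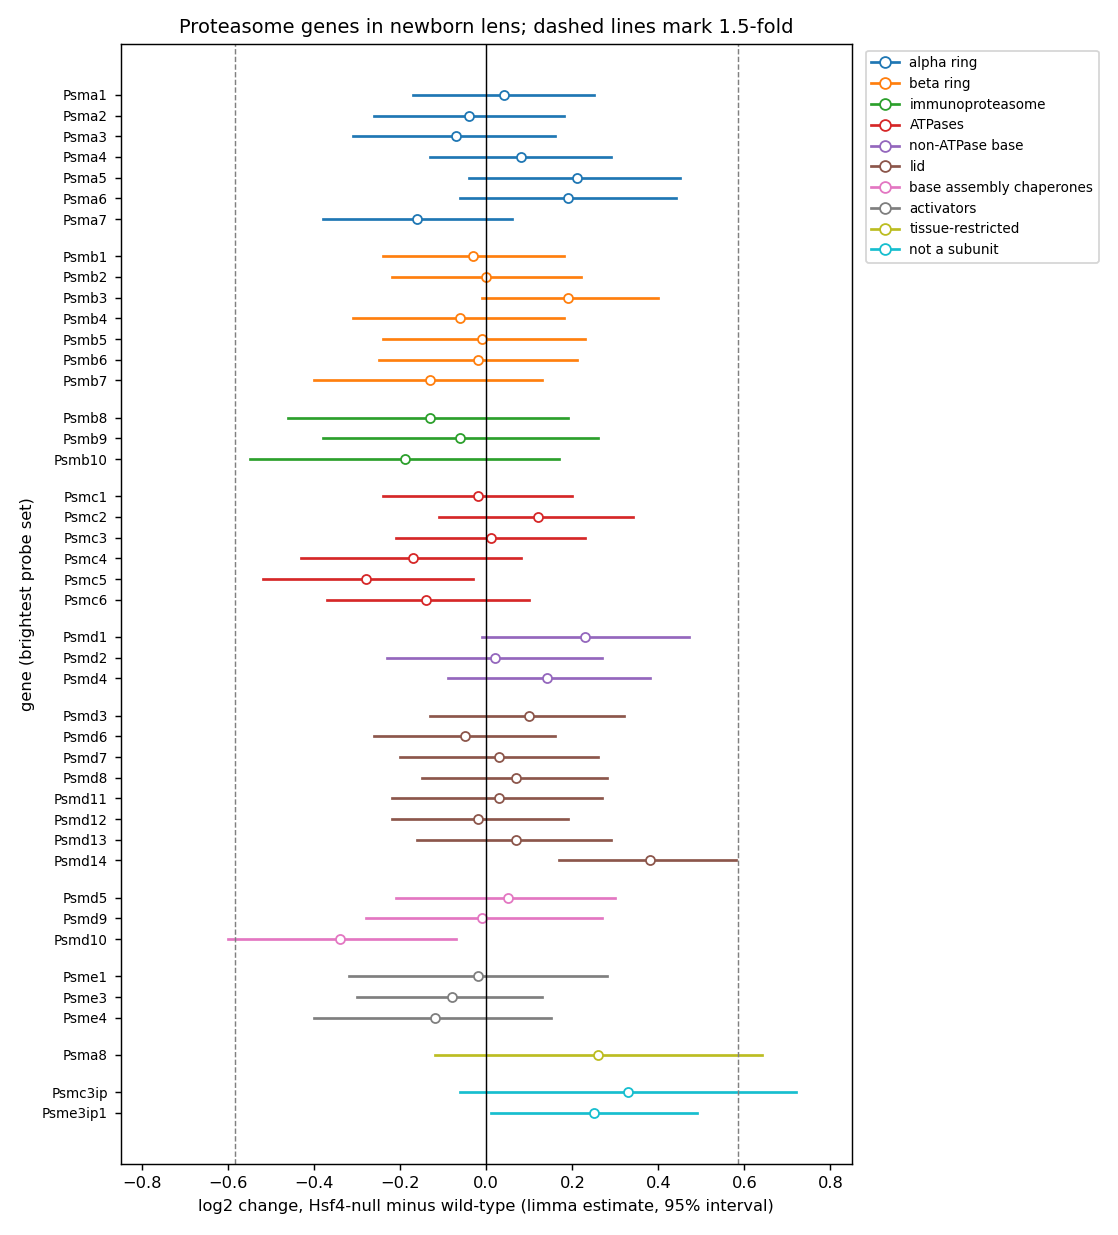
Log2 change (Hsf4-null minus wild-type, x axis) of each of the 43 genes found by the rule (y axis), grouped and coloured by place in the proteasome. Points are limma estimates, bars are 95% intervals, and dashed lines mark 1.5-fold. Among the 41 proteasome genes the bars of 39 stay inside the dashed lines, and Psmd14 at 0.38 and Psmd10 at -0.34 lie farthest from 0.

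In the alpha ring, whose 7 subunits form the gate into the barrel, the log2 changes ran from -0.16 to 0.21 with a median of 0.043. The largest increase was that of Psma5, which read 10.92, 11.06 and 11.01 in wild-type and 11.29, 11.27 and 11.06 in Hsf4-null lenses. Its change was 0.21 (SE 0.11, limma adjusted p = 0.411), and a second bright probe set of the gene gave 0.00. Psma7 lay at the other end, with 10.40, 10.38 and 10.35 in wild-type and 10.33, 10.17 and 10.15 in Hsf4-null lenses, a change of -0.16 (SE 0.10, limma adjusted p = 0.485). The groups of Psma7 did not overlap, while those of Psma5 touched at 11.06. Psma1, Psma2, Psma3, Psma4 and Psma6 had changes of -0.07 to 0.19.

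The beta ring had a median change of -0.021, from -0.13 to 0.19. Of its 7 genes 6 were below 0, beside 6037 of 12393 over all genes. Its cutting subunits are Psmb6 (caspase-like), Psmb7 (trypsin-like) and Psmb5 (chymotrypsin-like). Psmb5 read 12.16, 12.36 and 12.36 in wild-type and 12.28, 12.34 and 12.23 in Hsf4-null lenses, a change of -0.01 with an interval of -0.24 to 0.23. Psmb6 read 12.17, 12.19 and 12.14 in wild-type and 12.24, 12.17 and 12.03 in Hsf4-null lenses, a change of -0.02 with an interval of -0.25 to 0.21. For both, the groups overlapped almost fully. Psmb7 had the largest decrease of the ring at -0.13 (SE 0.11, limma adjusted p = 0.638), with 11.60, 11.73 and 11.72 in wild-type and 11.59, 11.70 and 11.37 in Hsf4-null lenses. Only Hsf4-null array 3 stood well below the wild-type range. Psmb3, a structural subunit with no cutting site, was the single gene of the ring above 0. It read 11.77, 11.83 and 11.80 in wild-type and 12.04, 11.98 and 11.96 in Hsf4-null lenses, a change of 0.19 (SE 0.09, limma adjusted p = 0.362). Its groups did not overlap, and its other probe set also gave 0.19. Psmb1, Psmb2 and Psmb4 lay between -0.06 and 0.00.

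Immunoproteasome subunits, which interferon induces in place of the cutting subunits of the beta ring, were dim. Psmb8 read 3.96, 4.06 and 4.23 in wild-type and 4.15, 4.0 and 3.70 in Hsf4-null lenses. Psmb9 read 3.57, 3.63 and 4.05 in wild-type and 3.68, 3.69 and 3.69 in Hsf4-null lenses. Both were under the lowest array median of 5.22 on every array, where a change in level is measured poorly. Psmb10 was brighter than that median, with 7.11, 7.62 and 7.32 in wild-type and 7.33, 7.15 and 6.98 in Hsf4-null lenses. Its change was -0.19 with an interval of -0.55 to 0.17 (limma adjusted p = 0.61), those of Psmb8 and Psmb9 were -0.13 and -0.06, and all 3 overlapped between groups. Psmb10 lies on chromosome 8, as Hsf4 does, with 20 measured genes between them.

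The same samples held other genes of the MHC class I and interferon response, of which 12 of 14 listed were measured. None passed in limma, and the median change was 0.07. At an unadjusted p under 0.05 there were 4 of 12, beside 15.7% of all genes. Those 4 were B2m, H2-K1, H2-D1 and Ifit1. B2m, the light chain of class I molecules, was at 0.53. Ifit1, an interferon-induced gene below the lowest array median, was at 0.41, and neither of these overlapped between groups. The class I heavy chains H2-K1 at 1.10 (SE 0.37, limma adjusted p = 0.216) and H2-D1 at 0.93 (SE 0.27, limma adjusted p = 0.156) did overlap. These values are from the brightest of 4 probe sets of H2-K1 and of 9 of H2-D1, none of which limma called. The 14 listed macrophage and blood markers also lay mostly above 0 in Hsf4-null lenses, 13 of 14 with a median of 0.28. Over all genes, 6356 of 12393 lay above 0. None of the 14 markers passed in limma, and 4 were at an unadjusted p under 0.05, beside 15.7% of all genes. Tyrobp and C1qa were at 0.05, and Cd14 was at -0.03. The largest change was that of Lyz2, the lysozyme of macrophages, at 1.68 (SE 0.43, limma adjusted p = 0.103), with 6.28, 5.53 and 4.80 in wild-type and 7.98, 6.66 and 7.02 in Hsf4-null lenses, without overlap. Their mean log2 level was 5.92, 5.74 and 4.82 on the wild-type arrays and 6.31, 5.53 and 5.99 on the Hsf4-null arrays, and 7 of the 14, Ptprc among them, were below the lowest array median. The 6 vascular markers had a median change of 0.19, and none passed. The part of such cells in these values was not tested.

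Promoter sequences bear on the question because Hsf4 binds DNA at heat shock elements, inverted repeats of GAA units. In RefSeq promoter windows of GRCm38.p6, from 250 bases before to 50 after a gene's start, 34 of the 41 genes had at least 1 window and 36 windows in all. The pair GAANNTTC, which reads the same on both strands, was in 2 of these 36 windows (5.56%) and in 7.86% of all 32851 windows. Both are printed here beside the pair of matches in the window of Hspb1, a small heat shock protein that fell by 4.12 on the log2 scale (SE 0.21, limma adjusted p = 7.44e-05). Capitals mark the match, the sequences run 5′ to 3′ on the gene's strand, and a match of letters is a description and not a binding site.
Psmb5, chr14:54618220-54618245, minus strand: ctcgagaaGAACATTCcaaccactct
Psmb9, chr17:34187507-34187534, minus strand: ttgcttgcgtGAATTTTCccatcccagg
Hspb1, chr5:135887792-135887819, plus strand: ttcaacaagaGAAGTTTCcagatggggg
Hspb1, chr5:135887812-135887839, plus strand: gatgggggcaGAACCTTCctggccccgc
The 2 proteasome genes with GAANNTTC, Psmb5 at -0.01 and Psmb9 at -0.06, did not pass. Psmb9 was too dim for its change to be read against the other genes. The CCAAT box, searched on both strands and common in promoters, was in 13 of the 36 windows (36.1%) and in 37.4% of all windows.

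The 6 ATPases of the base had a median change of -0.078, from -0.28 to 0.12. Psmc5 lay lowest, with 10.43, 10.70 and 10.63 in wild-type and 10.25, 10.36 and 10.32 in Hsf4-null lenses. Its change was -0.28 (SE 0.11, interval -0.52 to -0.03, limma adjusted p = 0.267), a level 1.21-fold lower. All 3 Hsf4-null arrays were below all 3 wild-type arrays, by the least against the first wild-type array, and the gene has 1 probe set. Psmc2 had the largest increase at 0.12 (SE 0.10, limma adjusted p = 0.635), with 10.50, 10.61 and 10.69 in wild-type and 10.77, 10.74 and 10.64 in Hsf4-null lenses. Psmc4 at -0.17, Psmc6 at -0.14, Psmc1 at -0.02 and Psmc3 at 0.01 overlapped between groups. The ATPases act as 1 ring of 6 different proteins, and their estimates did not share a direction.

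The 3 non-ATPase subunits of the base that the rule found were all above 0, with a median of 0.145. Adrm1, another subunit of the base whose name the rule does not cover, was not measured. Psmd1, a large scaffold of the base, read 11.26, 11.43 and 11.52 in wild-type and 11.62, 11.67 and 11.61 in Hsf4-null lenses. Its change was 0.23 (SE 0.10, limma adjusted p = 0.352), without overlap between groups. Psmd4, a receptor for ubiquitin chains, had a change of 0.14 (limma adjusted p = 0.556), also without overlap, and its next brightest probe set gave 0.08. Psmd2, the other large scaffold, read 10.12, 10.25 and 10.13 in wild-type and 10.09, 10.35 and 10.13 in Hsf4-null lenses, a change of 0.02.

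The lid had a median change of 0.05, from -0.05 to 0.38, with 6 of 8 genes above 0, beside 6356 of 12393 over all genes. Psmd14, the metalloprotease of the lid that cuts the ubiquitin chain from the substrate, had the largest difference of any proteasome gene by the probe set that stands for it. It read 10.76, 10.79 and 10.81 in wild-type and 11.20, 11.18 and 11.11 in Hsf4-null lenses. The 3 Hsf4-null arrays stood above the wild-type arrays by more than the spread of either group, with a change of 0.38 (SE 0.09, interval 0.17 to 0.58), a 1.30-fold higher level. This did not pass in limma (adjusted p = 0.0823), and over the limma alternatives the adjusted p ran from 0.0133 to 0.223. It passed with trended and robust variance (limma adjusted p = 0.0133) and with dim probe sets left out (limma adjusted p = 0.0453). The gene has 1 probe set on the array.

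At the lower end of the lid, Psmd6 read 12.21, 12.24 and 12.24 in wild-type and 12.22, 12.22 and 12.11 in Hsf4-null lenses, a change of -0.05 (SE 0.09, limma adjusted p = 0.849). Psmd3, Psmd7, Psmd8, Psmd11, Psmd12 and Psmd13 had changes of -0.02 to 0.10. Psmd7 lies on chromosome 8 too, with 47 measured genes between it and Hsf4. The COP9 signalosome, a complex built like the lid that removes Nedd8 from ubiquitin ligases, had 0 of 9 genes past the threshold in limma, 1 at an unadjusted p under 0.05, and a median change of 0.02. Cops5, the protease of that complex and the relative of Psmd14, was at -0.11 with an interval of -0.35 to 0.14.

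Psmd11, a lid subunit with 6 probe sets, was the gene whose probe sets differed most. The probe set that stands for it read 9.58, 9.78 and 9.83 in wild-type and 9.71, 9.79 and 9.77 in Hsf4-null lenses, a change of 0.03 (limma adjusted p = 0.937). Another of similar brightness read 10.29, 10.52 and 9.80 in wild-type and 9.0, 9.53 and 9.22 in Hsf4-null lenses. There the groups did not overlap, and the change was -0.96 (SE 0.21, interval -1.43 to -0.48, limma adjusted p = 0.0601), the lowest adjusted p of any of the 33 other probe sets. The choice between them was close, with group means of 9.73 and 9.76 for the former and of 10.20 and 9.25 for the latter. The 3 other probe sets of Psmd11 above the lowest array median gave 0.10, 0.00 and -0.03. Which transcript the discordant probe set reads was not tested.

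Among the 43 genes, 19 have several probe sets and 24 have 1. Of the 33 other probe sets, 21 were above the lowest array median, and 18 of those 21 lay within 0.2 of the gene's brightest probe set in log2 change. The exceptions were that of Psmd11, 1 of Psma5 at 0.00 against 0.21, and 1 of Psmb1 at -0.35 against -0.03. Among the probe sets below that median, 1 of Psmc1 gave 0.71 against -0.02, without overlap between groups (limma adjusted p = 0.143). None of the 33 was called by limma.

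**Figure D2:**
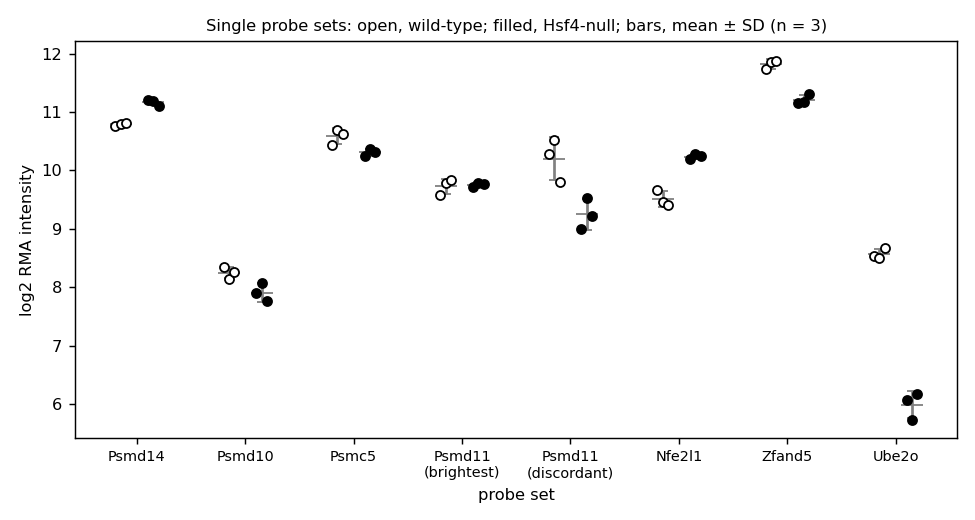
Log2 RMA intensity (y axis) on each array for 8 probe sets (x axis), with open circles for wild-type, filled circles for Hsf4-null, and bars for the mean ± SD (n = 3). The groups of Psmd14 lie apart with little spread, 1 Psmd11 probe set differs by -0.96 while the brightest differs by 0.03, and Ube2o shows the widest gap at -2.57.

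A trio of Psmd genes encodes chaperones that help build the base and leave the finished particle. Psmd10, also known as gankyrin, read 8.35, 8.15 and 8.26 in wild-type and 7.91, 8.07 and 7.76 in Hsf4-null lenses. Its change was -0.34 (SE 0.12, interval -0.60 to -0.07, limma adjusted p = 0.218), the lowest of the proteasome genes and 1.26-fold. The groups did not overlap, though Hsf4-null array 2 lay close below the lowest wild-type array. Psmd5 was at 0.05, with 8.41, 8.59 and 8.67 in wild-type and 8.50, 8.68 and 8.64 in Hsf4-null lenses, and Psmd9 was at -0.01.

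The activators that cap the core in place of the 19S particle were all slightly below 0. Psme1, the PA28 alpha subunit, read 10.07, 9.96 and 9.86 in wild-type and 10.18, 9.88 and 9.78 in Hsf4-null lenses, a change of -0.02 with an interval of -0.32 to 0.28. Psme4, the PA200 activator, read 11.49, 11.36 and 11.70 in wild-type and 11.31, 11.51 and 11.36 in Hsf4-null lenses, a change of -0.12 (SE 0.12, limma adjusted p = 0.676). Psme3, the nuclear PA28 gamma, was at -0.08, and all 3 overlapped between groups. Psme2, the partner of Psme1, has no value here because its probe set carries a second symbol, Psme2b.

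Psma8, an alpha subunit of the testis, was below the lowest array median. It read 4.29, 4.23 and 4.25 in wild-type and 4.15, 4.60 and 4.80 in Hsf4-null lenses, a change of 0.26 with an interval of -0.12 to 0.64. The 2 genes that the rule also found are not subunits. Psmc3ip, a cofactor of recombination in meiosis, was at 0.33 (SE 0.17, limma adjusted p = 0.403), with overlap. Psme3ip1, a protein that binds PA28 gamma, was at 0.25 (SE 0.10, limma adjusted p = 0.31), without overlap, and it lies on chromosome 8 with 45 measured genes between it and Hsf4.

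Averaged over the 41 genes, the arrays deviated from the wild-type mean by -0.061, 0.025 and 0.036 in wild-type and by 0.023, 0.032 and -0.052 in Hsf4-null lenses (log2). The groups overlapped fully, and the spread lay between arrays of the same group. The first wild-type array held the lowest wild-type value for 27 of the 41 genes (65.9%, against 39.1% of all genes), and Hsf4-null array 3 the lowest of its group for 24 (58.5%, against 32.0% of all genes). The spread of these averages within each group was larger than the median change between groups. Leaving out the first wild-type array moved the median change over the 41 genes to -0.032, and leaving out Hsf4-null array 3 moved it to 0.017.

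By class, only the lid and the non-ATPase base had averages that did not overlap between groups. The lid averaged -0.028, 0.009 and 0.019 in wild-type and 0.101, 0.072 and 0.051 in Hsf4-null lenses. On each array the median of its 8 genes gives Psmd14 less weight. That median was -0.025, 0.015 and 0.021 in wild-type and 0.085, 0.041 and 0.027 in Hsf4-null lenses. The gap was narrow, with 0.027 on Hsf4-null array 3 against 0.021 on wild-type array 3. Psmd14 was the only lid gene whose groups did not overlap. The lid average without it was not taken, so the gap in that average cannot be read as a trait of the whole lid. The non-ATPase base averaged -0.049, 0.025 and 0.024 in wild-type and 0.142, 0.183 and 0.069 in Hsf4-null lenses. Averages of the ATPases were -0.105, 0.053 and 0.053 in wild-type and -0.064, -0.060 and -0.118 in Hsf4-null lenses. Differences between these classes were described and not tested. How often gene groups of such sizes do not overlap over all genes was not tested either. Over the 14 genes of the 20S core the median change was -0.015. Over the 17 genes of the 19S particle found by the rule it was 0.025.

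**Figure D3:**
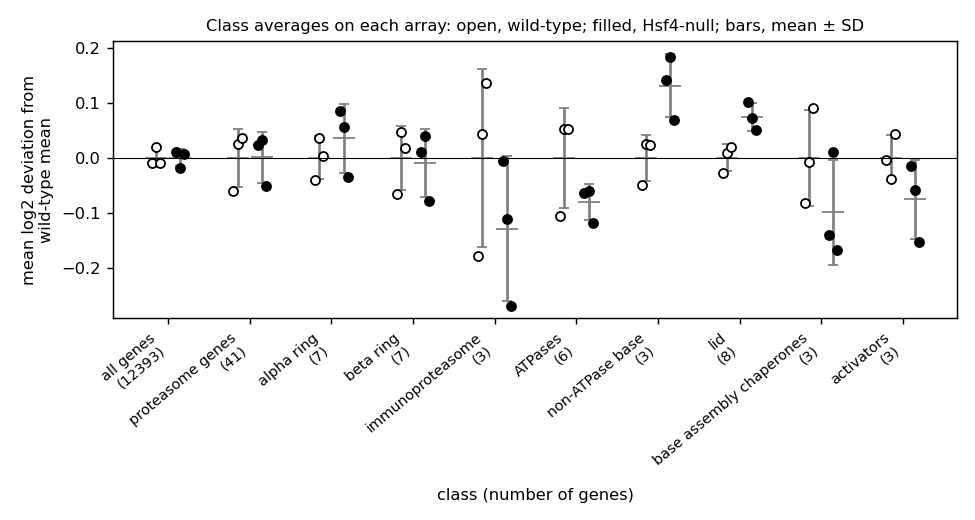
Mean log2 deviation from the wild-type mean (y axis) on each array, for all genes, all 41 proteasome genes and each class (x axis, with the number of genes). Open circles are wild-type arrays, filled circles are Hsf4-null arrays, and bars are the mean ± SD over 3 arrays. The 41 genes together overlap, between -0.061 and 0.036, while the lid and the non-ATPase base are higher on the 3 Hsf4-null arrays. The lid average includes Psmd14, the only lid gene whose groups did not overlap, so its gap cannot be read as a trait of the whole lid.

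**Figure D4:**
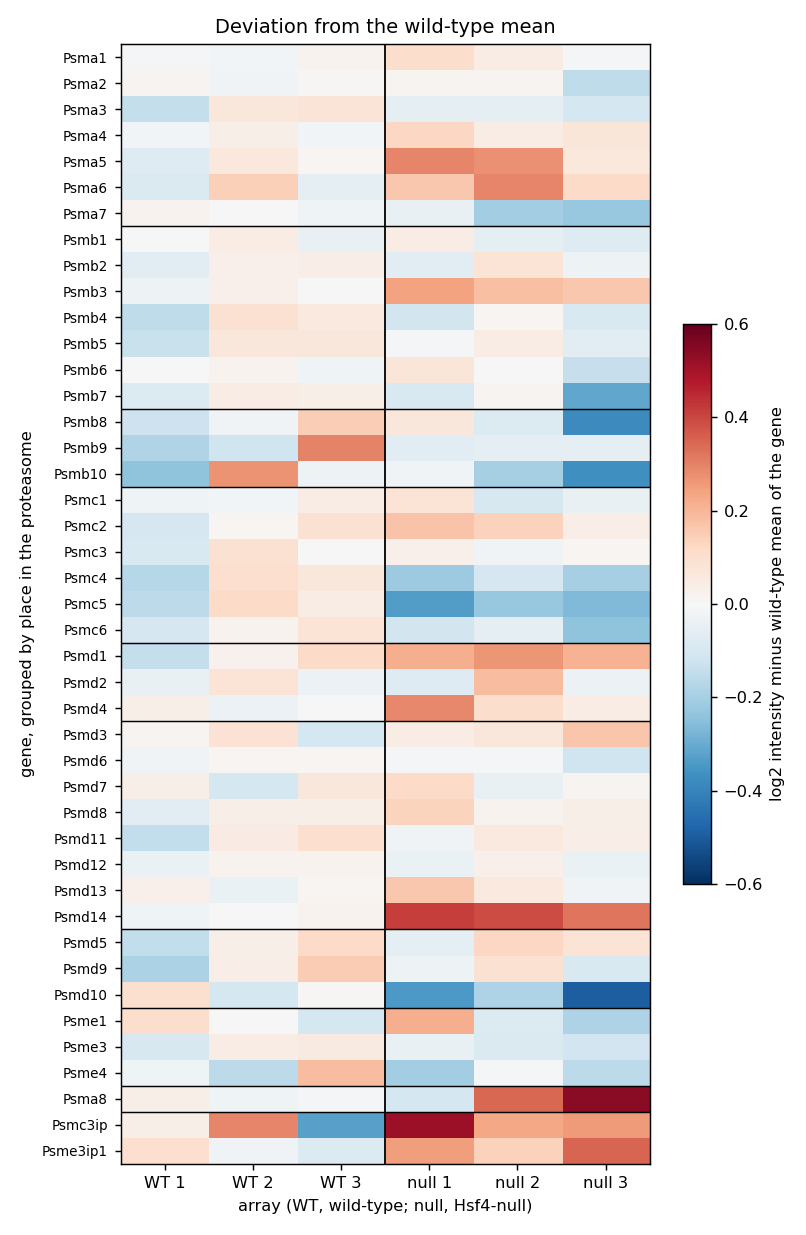
Log2 intensity of each of the 43 genes (rows) on each of the 6 arrays (columns) as its deviation from the gene's wild-type mean, in red above and blue below. Psmd14 is the one row that is deep red on all 3 Hsf4-null arrays, at 11.20, 11.18 and 11.11 against 10.76 to 10.81, and most other rows are pale on both sides of the dividing line.

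Outside the particle, 1 of the listed transcription factors and their regulators passed. Nfe2l1, a membrane-bound factor that raises proteasome genes through antioxidant response elements when the proteasome is impaired, read 9.66, 9.46 and 9.41 in wild-type and 10.19, 10.28 and 10.24 in Hsf4-null lenses. It rose by 0.72 on the log2 scale, or 1.65-fold (SE 0.10, interval 0.48 to 0.96, limma adjusted p = 0.0115). Every Hsf4-null array was above every wild-type array. The call was lost without the second wild-type array (limma adjusted p = 0.0583) and without Hsf4-null array 3 (limma adjusted p = 0.0537). It was also lost with the replicate block (limma adjusted p = 0.0522), and the methods' t-test gave 0.0886 after adjustment.

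Of the 7 listed control genes 5 were measured, and only Nfe2l1 passed, beside 0.775% of all genes called higher and 2.11% called lower. Ngly1, the glycanase that Nfe2l1 needs for its maturation, was at -0.50 (SE 0.12, limma adjusted p = 0.0866). It read 7.44, 7.64 and 7.33 in wild-type and 7.05, 6.83 and 7.04 in Hsf4-null lenses, without overlap. Nfe2l2, the related factor of the oxidative stress response, and its inhibitor Keap1 were at 0.04 and 0.02. Hsf2, a heat shock factor also tied to proteasome genes, was dim, with 3.62, 3.67 and 3.77 in wild-type and 3.70, 3.96 and 3.78 in Hsf4-null lenses. Its change was 0.13 (limma adjusted p = 0.625), and Hsf1 and Ddi2 were not analysed here.

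The core of the antioxidant response element, TGACNNNGC, searched on both strands, was in 6 of the 36 proteasome windows (16.7%) and in 12.4% of all windows. The 6 genes were Psmb5, Psmb6, Psmc6, Psmd9, Psmd12 and Psme4. A core subunit, an ATPase and an assembly chaperone are shown as examples, with the match in capitals. That of Psmc6 is the reverse complement.
Psmb5, chr14:54618024-54618052, minus strand: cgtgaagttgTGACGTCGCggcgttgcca
Psmd9, chr5:123228149-123228177, plus strand: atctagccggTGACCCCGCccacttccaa
Psmc6, chr14:45329587-45329615, plus strand: ccagccagtaGCTAAGTCAggcattgctc
The 6 genes with the match had log2 changes of -0.01 (Psmb5 and Psmd9), -0.02 (Psmb6 and Psmd12), -0.14 (Psmc6) and -0.12 (Psme4), and none passed.

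Assembly and associated factors were measured for 15 of 16 listed genes, with a median change of -0.06. Of these, 1 fell, 0 rose and 14 did not pass. Over all genes, limma called 2.11% lower and 0.775% higher. Zfand5, a zinc finger protein that stimulates the proteasome, read 11.73, 11.85 and 11.88 in wild-type and 11.15, 11.17 and 11.31 in Hsf4-null lenses. It fell by 0.61 on the log2 scale (SE 0.10, limma adjusted p = 0.0186). Its other probe sets gave -0.50 (limma adjusted p = 0.0825) and -0.18 (limma adjusted p = 0.401), both with the Hsf4-null arrays below. The call was lost without wild-type array 2 or 3 and without Hsf4-null array 1 or 2, with adjusted p-values of 0.0698 to 0.0856 from limma, and with the replicate block at 0.0566. The methods' t-test gave 0.0827 after adjustment.

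Psmg1, a chaperone of the alpha ring, was at -0.40 (SE 0.11, limma adjusted p = 0.129), with 8.50, 8.63 and 8.44 in wild-type and 8.16, 8.23 and 7.97 in Hsf4-null lenses. Its partner Psmg2 was at 0.03, and Pomp, which matures the beta ring, was at -0.07. Sem1, the small subunit of the lid, was at 0.02.

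Of 27 measured E2 ubiquitin-conjugating enzymes (symbols that start with Ube2), 1 fell, 0 rose and 26 did not pass, with a median change of -0.10. The shares called over all genes were 2.11% lower and 0.775% higher. Ube2o, a large enzyme that joins E2 and E3 activity in 1 protein, read 8.54, 8.51 and 8.67 in wild-type and 6.07, 5.74 and 6.18 in Hsf4-null lenses. It fell by 2.57 on the log2 scale, a 5.96-fold lower level (SE 0.13, limma adjusted p = 7.44e-05), and passed under every alternative tried. The gene has 1 probe set. The other 26 had changes of -0.35 to 0.36. Of 15 listed genes of ubiquitin supply and shuttling, 9 were measured and none passed in limma, with 1 at an unadjusted p under 0.05, Faf1 at -0.28. Vcp, the segregase that hands substrates to the proteasome, was at 0.14 with an interval of -0.08 to 0.35.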

How the data were processed

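The authors normalized the arrays by RMA (named in the submitters' processing notes, version not given in the sources used here) and deposited 1 linear intensity per probe set and array. Log2 was taken here. After 64 array controls of 22690 probe sets were left out, 22626 entered a linear model (lmFit, then eBayes, limma 3.58.1 under R 4.3.3), with Benjamini-Hochberg adjustment over all of them and no filter on dim probe sets. Of these 20380 carry 1 gene symbol, 691 several, and 1555 are unnamed here. Symbols were updated to RefSeq GRCm38.p6, which also gave promoter windows and gene order. P-values set the difference between groups against the spread between these arrays. Since pooling is not stated, that spread cannot be equated with the spread between animals.

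The members, classes and lists were chosen with earlier results of these data known. Values on every array are given for called genes, the largest increase and decrease of each class, the catalytic subunits, Psme1, Nfe2l1 and Hsf2. The discordant Psmd11 probe set, Psmg1, Ngly1, Cops5 and other names outside this rule were chosen after their values were seen. The methods' t-test (equal variance, two-sided) was an alternative. The methods join it with SAM, which was not run here. Limma and the t-test were run on simulated arrays with added changes larger than any of the proteasome genes, so small changes were not covered.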

Additional observations from a re-analysis of the deposited data

How the results depend on the processing

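No proteasome gene was called by limma with array weights, renewed quantile normalization, median centring, 1 probe set per gene or the mean of a gene's probe sets, nor by the t-test after adjustment. The count of 0 became 5 of 41 with the methods' t-test at p under 0.05. It became 1 of 41 with trended and robust variance and 1 of 38 with dim probe sets left out, Psmd14 in both. Over all genes, trended and robust variance called 495 of 12393, and leaving out dim probe sets called 380 of 6889. Leaving out each array in turn gave 0 calls each time and a median change of -0.032 to 0.017, with -0.009 over all arrays. Over the other alternatives that median ran from -0.018 (mean of the probe sets) to 0.018 (quantile normalization). Of 685 results of single member genes under 16 alternatives, 677 kept their side of the threshold, 8 came to pass it and 0 reversed. A gene that passed in neither setting counted as unmoved whatever its sign. Over the 65 genes of the assembly, control, ubiquitin, E2 and COP9 lists, the 3 calls became 10 with the t-test at p under 0.05. They became 1 after its adjustment, and 1 to 3 with an array left out (1 without the second wild-type array). The same t-test marked 1660 of all 12393 genes (13.4%) at p under 0.05 and 52 after adjustment, beside 357 called by limma. With the replicate number as a block, 0 proteasome genes and 1 list gene were called. The labels do not say that the numbers pair arrays, and the deviations of arrays with the same number did not show it, with correlations of 0.252, -0.206 and -0.0806. Over all genes the calls went from 357 to 228 with the block and to 199 to 332 with an array left out. No detection calls were used, and values near the bottom of the scale limit what Psmb8, Psmb9 and Psma8 can show.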
